A study of Rattus norvegicus with 22 samples.

Results

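Axin2, Rnf43, Oat and Avpr1a were followed through the livers of young adult male Wistar rats whose mothers had received an obesogenic diet (MO, 5 animals) or a control diet (6 animals), all taken at postnatal day 110. They are 4 of the 1325 genes, in 1365 rows, of the deposited male table, picked by name for their known place around the central vein or among the targets of Wnt signalling. The study also holds 5 MO and 6 control females, whose table of 69 rows has 0 of the 4 genes, so that their levels in females were not analysed here. Each animal gave 1 library of whole-liver RNA, and the labels give neither litters nor the make-up of the diets. Every row of the male table had been listed for a difference between MO and control males, so the differences of the 4 genes describe how they were chosen and are given without a test.

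Hepatocytes differ along the path of the blood from the portal vein to the central vein. Endothelial cells of the central vein release Wnt ligands, which act through beta-catenin and the TCF family of transcription factors to keep a pericentral programme of genes on in the nearest hepatocytes. Axin2 is a scaffold of the complex that destroys beta-catenin and Rnf43 a membrane ubiquitin ligase that removes Wnt receptors from the cell surface. Both genes are switched on by the pathway that they restrain. Oat, the ornithine aminotransferase of mitochondria, passes nitrogen from ornithine to glutamate in pericentral hepatocytes of rodents. Avpr1a, a vasopressin receptor that raises cell calcium through Gq proteins, is the receptor through which vasopressin drives glycogen breakdown in rat hepatocytes.

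The promoter windows of the 4 genes are shown because TCF factors are known to bind DNA with a CTTTG core, and the windows can be read for it. Each covers 250 bases before and 50 after a RefSeq transcript start in the assembly GRCr8, and all 4 genes were matched. The windows are chr10:94398535-94398834 (plus strand) for Axin2, chr10:72963116-72963415 (plus strand) for Rnf43, chr1:196797705-196798004 (minus strand) for Oat and chr7:59999493-59999792 (plus strand) for Avpr1a. For Axin2 and Rnf43 the gene record begins at another transcript further upstream. Capitals mark matches of 2 forms of the motif known for TCF factors, CTTTGAA and also the form CTTTGAT, or of the bare core CTTTG, all searched on both strands.
Axin2: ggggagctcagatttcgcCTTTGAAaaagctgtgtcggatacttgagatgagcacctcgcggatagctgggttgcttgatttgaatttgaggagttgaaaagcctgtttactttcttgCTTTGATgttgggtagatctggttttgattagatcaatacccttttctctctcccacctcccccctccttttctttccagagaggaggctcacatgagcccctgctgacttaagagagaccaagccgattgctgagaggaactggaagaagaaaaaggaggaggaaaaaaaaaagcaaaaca
Rnf43: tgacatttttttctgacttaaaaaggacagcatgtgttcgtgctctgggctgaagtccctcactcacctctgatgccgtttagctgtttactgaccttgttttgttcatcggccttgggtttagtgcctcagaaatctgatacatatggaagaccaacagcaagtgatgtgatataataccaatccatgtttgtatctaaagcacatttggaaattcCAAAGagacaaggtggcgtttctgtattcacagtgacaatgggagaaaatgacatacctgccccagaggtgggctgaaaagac
Oat: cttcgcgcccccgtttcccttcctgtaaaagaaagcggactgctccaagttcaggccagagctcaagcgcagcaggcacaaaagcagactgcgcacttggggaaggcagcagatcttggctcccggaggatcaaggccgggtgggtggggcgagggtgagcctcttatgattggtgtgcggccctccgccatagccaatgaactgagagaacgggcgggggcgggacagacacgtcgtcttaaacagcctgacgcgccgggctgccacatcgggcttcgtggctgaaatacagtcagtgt
Avpr1a: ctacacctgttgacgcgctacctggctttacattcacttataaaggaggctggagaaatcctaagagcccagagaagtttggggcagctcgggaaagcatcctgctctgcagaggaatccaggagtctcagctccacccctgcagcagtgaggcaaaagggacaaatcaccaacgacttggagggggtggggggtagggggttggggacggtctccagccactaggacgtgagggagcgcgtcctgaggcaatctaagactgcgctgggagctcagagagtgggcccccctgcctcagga

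Axin2 held 1 CTTTGAA, at -232 to -226 from the start, and 1 CTTTGAT, at -132 to -126. Of 33469 rat promoter windows of this length, 5.40% held CTTTGAA, 3.63% held CTTTGAT and 0.302% held both. Rnf43 held the bare core alone, once, read on the opposite strand at -33 to -29, and 53.8% of all windows hold that core at least once (it lies within both longer motifs). Oat and Avpr1a held none of the 3 in these windows. Their windows were 61.0% and 58.7% G and C, those of Axin2 and Rnf43 45.7% and 43.0%, and the median of all windows was 51.7%. A match of letters describes the window and shows no binding.

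Levels are given in RPM, the reads of a transcript scaled to a common library total. Differences are on the log2(RPM + 1) scale, MO minus control, and come from a limma fit over all 1365 rows. Depth was estimated from the step between the low values of each library, at 10530000 to 11590000 reads in MO males and 7890000 to 11170000 in control males. The read numbers and counting errors given below rest on this estimate. Control males 1 and 5 stood apart from the other controls in Rmrp, a ribonuclease RNA that is not polyadenylated, which measured 1.71 to 3.11 RPM in MO males, 1.20 and 1.52 RPM in these 2 controls and 36.9 to 51.2 RPM in the other 4. The median of all listed rows was 3.72 to 4.06 on the log2 scale in MO males and 4.29 to 4.92 in control males, with the highest value in control male 6. Because the table was selected and 1317 of its 1365 rows were lower in MO males, this shift describes the table and no single unlisted transcript. The listed rows held 6.58% to 8.69% of the reads in MO males and 9.69% to 15.3% in control males. RPM has a fixed total, so the reads outside the table took a larger share in MO males. Which transcripts they came from is not known.

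All 4 genes were lower in MO males, at 42.9% to 51.3% of the control mean. In 3 of the 4, Rnf43, Oat and Avpr1a, every MO animal was below every control, a pattern that 29.9% of the listed rows shared. All 4 passed the limma threshold (adjusted p of 0.05 over the table) as lower, as did 96.5% of the rows, while 3.52% passed as higher. That rows passed follows from their listing for a difference, in either direction. Why most were lower was not tested. In whole-liver RNA, fewer cells of a type and less RNA per cell cannot be told apart.

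Axin2, the scaffold that marks an active Wnt pathway, had 3.16, 2.47, 5.20, 4.81 and 4.06 RPM in MO males 1 to 5, against 3.80 RPM in the lowest control, a median of 7.82 RPM and 11.6 RPM in the highest. The groups overlapped through control male 1, the lowest control, which was below MO males 3, 4 and 5. Means were 3.94 ± 1.14 RPM in MO males (SD, n = 5) and 7.68 ± 2.61 RPM in control males (SD, n = 6). The log2 difference was -0.79 ± 0.22 (SE). Axin2 is a rare transcript in this tissue, with 26 to 109 reads per library.

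Rnf43, the ubiquitin ligase that acts on Wnt receptors, had 1.44, 2.37, 5.82, 4.34 and 3.97 RPM in MO males 1 to 5. The control males had 5.96 RPM at the lowest, a median of 6.29 RPM and 13.5 RPM at the highest. MO male 3 and control male 4 nearly touched, at 5.82 and 5.96 RPM. Control male 6 stood far above the other controls, the next of which was at 7.93 RPM. Means were 3.59 ± 1.72 RPM in MO males (SD, n = 5) and 7.66 ± 2.96 RPM in control males (SD, n = 6), a log2 difference of -0.95 ± 0.24 (SE). Rnf43 had 16 to 127 reads per library.

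Oat had 154.6, 154.5, 75.3, 172.4 and 115.4 RPM in MO males 1 to 5. The control males ranged over 199.8 RPM at the lowest, a median of 253.0 RPM and 510.9 RPM at the highest. The highest control was male 5, and the other 5 controls lay within 199.8 to 268.2 RPM. MO male 3, which had the most Axin2 and Rnf43 of its group, had the least Oat. Means were 134.4 ± 39.1 RPM in MO males (SD, n = 5) and 285.3 ± 113.2 RPM in control males (SD, n = 6), and the log2 difference was -1.06 ± 0.24 (SE).

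Avpr1a, the vasopressin receptor, had 24.7, 22.0, 36.8, 30.1 and 39.2 RPM in MO males 1 to 5. In control males the lowest was 60.4 RPM, the median 69.2 RPM and the highest 90.4 RPM. The groups did not overlap, with 39.2 RPM in the highest MO male and 60.4 RPM in the lowest control. Means were 30.6 ± 7.42 RPM in MO males (SD, n = 5) and 71.2 ± 10.2 RPM in control males (SD, n = 6). The log2 difference of -1.22 ± 0.18 (SE) was exceeded downwards by 3.30% of the listed rows, against 4.40% for Oat, 7.33% for Rnf43 and 14.7% for Axin2.

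**Figure D1:**
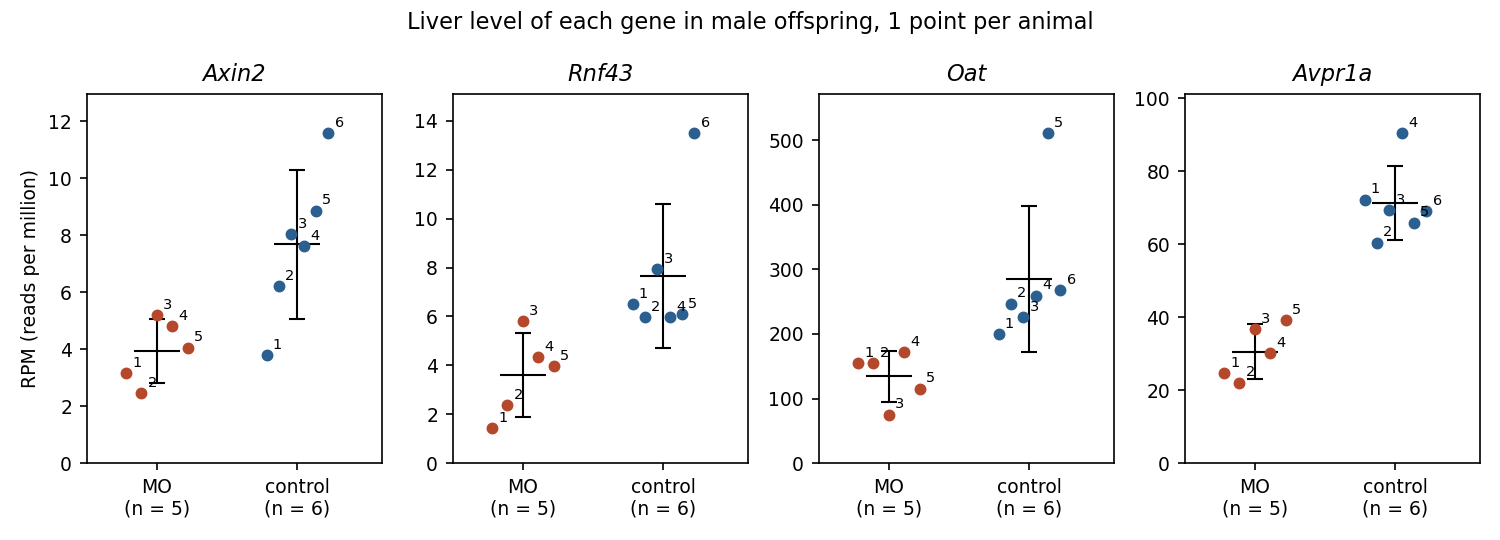
Level in RPM (linear axis from 0) of Axin2, Rnf43, Oat and Avpr1a in each MO male (left, numbered points, n = 5) and each control male (right, n = 6), with black bars for the mean ± SD. The 5 MO males lie below every control for Rnf43, Oat and Avpr1a, and control male 1 lies among the MO males for Axin2.

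The deposited values by which the rows had been listed come from the same animals. That they rank the genes in the same way therefore adds no support. The authors' deposited table gives unadjusted p-values of 0.00004 for Avpr1a, 0.00495 for Oat, 0.01179 for Rnf43 and 0.01296 for Axin2. Its largest p-value over the male rows is 0.04964 and its smallest change 0.48 on the log2 scale.

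Relative to the rows around them, the 4 genes were set apart to different degrees. The median log2 difference of all listed rows was -0.58, and all 4 genes lay below it, with a median of -1.01. When each library was centred on its median over the listed rows, the median difference of all rows became 0.01. The difference was then -0.63 ± 0.19 for Avpr1a, -0.48 ± 0.28 for Oat, -0.36 ± 0.22 for Rnf43 and -0.20 ± 0.20 for Axin2 (SE). On that scale 0 of the 4 genes passed the limma threshold, where 5.27% of rows did in either direction (24 rows lower and 48 higher). Against control males 1 and 5 alone, when 36.1% of rows passed as lower, the log2 difference of Axin2 was -0.51, against -0.92 from the other 4 controls. Rnf43 was then at -0.76, Oat at -1.30 and Avpr1a at -1.18. Axin2 and Rnf43 missed the threshold in that fit, and Oat and Avpr1a passed it. The rows had been listed for this difference, so these calls test none of the 4 genes. Nor were control males 1 and 5 alike in these genes. Axin2 was at 3.80 RPM in male 1 and 8.86 RPM in male 5, and Oat at 199.8 and 510.9 RPM. Without control male 1 alone the log2 difference of Axin2 was -0.94, and without control male 5 alone that of Oat was -0.88. With a pseudocount of 5 in place of 1, Axin2 was at -0.49 and Rnf43 at -0.56, beside a median of -0.47 for all rows. With a pseudocount of 0.1 they were at -0.92 and -1.15, beside a median of -0.64. Oat was then at -1.07, so the order of Rnf43 and Oat depended on the pseudocount.

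The genes differed in how much their levels varied between animals and in how much of that counting alone could give. The coefficient of variation of Avpr1a was 24.3% in MO males and 14.3% in control males, where its mean of 339 and 661 reads would give 5.43% and 3.89% from counting error alone. For Rnf43 it was 47.8% in MO males and 38.6% in control males, where mean reads of 40 and 72 would give 15.9% and 11.8%. Axin2 varied by 28.8% in MO males and 34.0% in control males, with 15.1% and 11.8% from counting, and Oat by 29.1% and 39.7%, with 2.61% and 1.91% from counting.

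The order of the animals was shared by some of the genes. In the controls, males 5 and 6 were the highest pair for both Axin2 and Oat. Control male 6 had the most Axin2 and Rnf43, control male 5 the most Oat and control male 4 the most Avpr1a. Control male 1 was lowest for Axin2 and Oat, yet second highest for Avpr1a. Among MO males, Axin2, Rnf43 and Avpr1a had the same 3 highest animals, males 3, 4 and 5, and the same pair of lowest ones, males 1 and 2. Axin2 and Rnf43 ranked those 3 alike, with male 3 highest, then 4, then 5. For Oat male 3 was lowest and male 5 next to it, while male 4 was highest.

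**Figure D2:**
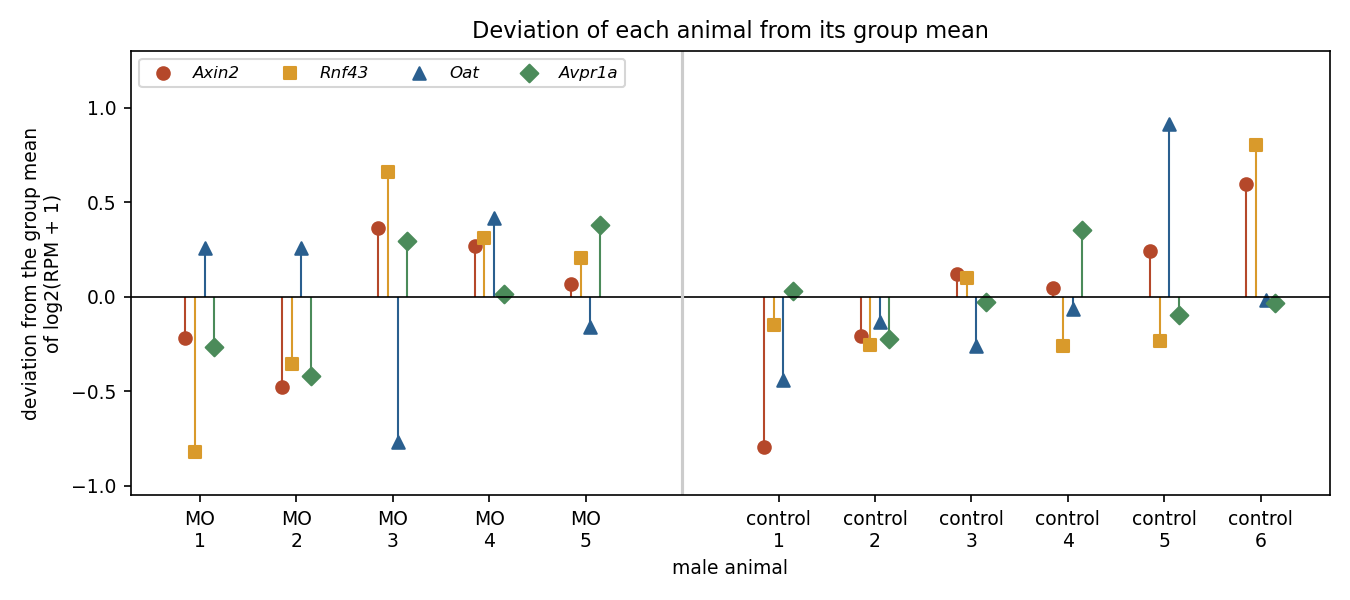
Deviation of each animal from its group mean on the log2(RPM + 1) scale, for the 4 genes, in MO males (left) and control males (right). Rnf43 was 0.66 above its group mean in MO male 3 and 0.80 above it in control male 6, with Axin2 on the same side at 0.36 and 0.60, whereas Oat stood out in MO male 3 (-0.77) and control male 5 (0.91).

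Covariation was computed for the 6 pairs within the 6 control males, with exact two-sided permutation tests adjusted over the 6 pairs (Benjamini-Hochberg), and 5 MO males were too few for it. Axin2 and Rnf43, the Wnt feedback genes, had a Pearson r of 0.61 (exact permutation p = 0.25, adjusted 0.88) and a Spearman rho of 0.49 (exact permutation p = 0.36, adjusted 0.92). Without the 2 controls farthest from the median of Axin2, r was 0.29, and without control male 6 it was 0.09, so that the value rested on that animal. Axin2 and Oat had an r of 0.50 (exact permutation p = 0.29, adjusted 0.88) and a rho of 0.77 (exact permutation p = 0.10, adjusted 0.62). Their r was 0.63 without the 2 farthest controls, 0.25 without control male 1 and 0.84 without control male 5. The other 4 pairs had r of -0.20 to -0.02 and rho of -0.37 to -0.09 (exact permutation p of at least 0.497 for each), and r of -0.37 to 0.30 without the 2 farthest controls. No pair passed the threshold.

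When the deviations from the group means of all 11 males were used instead, Axin2 and Rnf43 had an r of 0.68 (exact permutation within groups, p = 0.031, adjusted 0.19). Oat and Avpr1a had an r of -0.47 (exact permutation within groups, p = 0.17, adjusted 0.30), Rnf43 and Oat -0.40, and Axin2 and Oat 0.11. Avpr1a had r of 0.38 with Axin2 and 0.49 with Rnf43, both near 0 or below in the controls alone. Again no pair passed after adjustment over the 6 pairs.

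The 4 genes also differed in how far they followed the general level of the listed rows in a library, a relation looked at after the values had been seen. In the 6 control males Rnf43 followed the library median with a Pearson r of 0.98 (exact permutation p = 0.0014, the smallest that 6 animals can give, adjusted 0.0056 over the 4 genes) and a Spearman rho of 1.0 (exact permutation p = 0.0028, adjusted 0.011). It was 0.998 without the 2 controls farthest from the middle of the medians and 0.93 without control male 6. The median r of all listed rows with that median was 0.75, and 1.10% of rows reached the value of Rnf43. Oat had an r of -0.21 (exact permutation p = 0.69, adjusted 0.81) and a rho of -0.09, and Avpr1a an r of -0.13 (exact permutation p = 0.81, adjusted 0.81) and a rho of -0.09. Of the listed rows 96.5% had an r at least as high as Oat and 94.9% one at least as high as Avpr1a. Axin2 was between them, with an r of 0.47 (exact permutation p = 0.34, adjusted 0.69) and a rho of 0.49, and its r was -0.78 without the 2 farthest controls and -0.21 without control male 6. Without the 2 farthest controls r was -0.32 for Oat and -0.08 for Avpr1a.

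**Figure D3:**
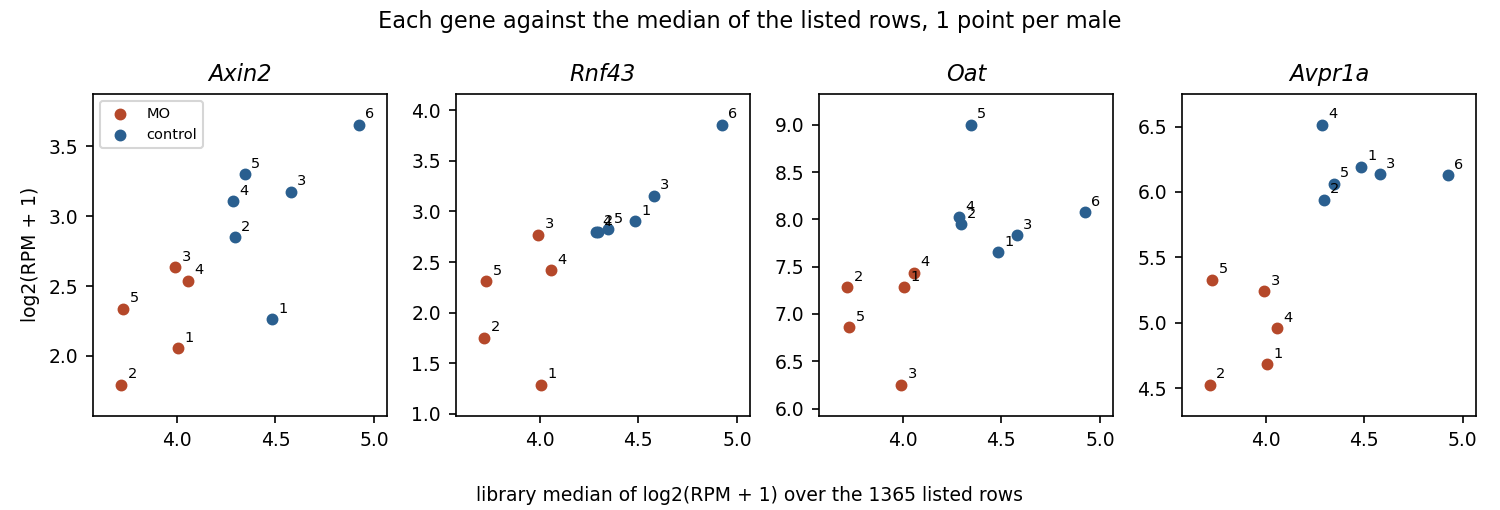
Level of each gene on the log2(RPM + 1) scale against the median of the 1365 listed rows in the same library, for MO males (red, n = 5) and control males (blue, n = 6), numbered by animal. The control points of Rnf43 lie near a line (r = 0.98), while those of Oat and Avpr1a do not (r = -0.21 and -0.13).

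The genes whose deviations from the group means were most like those of each of the 4 were ranked by Pearson r over the 11 males, as a description, since all values come from the same libraries. For Axin2 they were Lzts1 (r = 0.91), Tmem194b (r = 0.90) and Serhl2 (r = 0.87), where 90% of rows lay between -0.20 and 0.68. Lzts1, which encodes a leucine zipper protein, averaged 1.33 ± 0.77 RPM in MO males (SD, n = 5) and 3.11 ± 1.45 RPM in control males (SD, n = 6). For Rnf43 they were the transcription regulator Tsc22d1 (r = 0.92), the chromatin reader Zmynd8 (r = 0.89) and Heatr5b (r = 0.88), where 90% of rows lay between -0.20 and 0.73. Tsc22d1 averaged 58.5 ± 14.6 RPM in MO males (SD, n = 5) and 170.9 ± 49.9 RPM in control males (SD, n = 6).

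The 3 genes most like Oat were Ethe1, Gnmt and Hpd. Ethe1, a mitochondrial dioxygenase of sulfide breakdown, had an r of 0.81, Gnmt, the glycine N-methyltransferase, 0.77, and Hpd, an enzyme of tyrosine breakdown, 0.76. Gnmt averaged 332.2 ± 140.0 RPM in MO males (SD, n = 5) and 677.1 ± 277.3 RPM in control males (SD, n = 6). For Oat 90% of rows lay between -0.57 and 0.44. Those most like Avpr1a were Id4, an inhibitor of helix-loop-helix factors (r = 0.79), the nucleoside transporter Slc28a2 (r = 0.76) and Litaf (r = 0.69), where 90% of rows lay between -0.42 and 0.45. Slc28a2 averaged 96.4 ± 53.7 RPM in MO males (SD, n = 5) and 284.5 ± 73.2 RPM in control males (SD, n = 6). Within the control males alone r was 0.89 to 0.98 for the genes named for Axin2, 0.90 to 0.94 for those of Rnf43, 0.59 to 0.65 for those of Oat and 0.12 to 0.57 for those of Avpr1a.

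Around the 4 genes, the Wnt pathway was represented by few rows, and the counts of lower genes that follow stand against 96.5% of all rows. Of 25 ligands, R-spondins and secretion factors 0 were listed. Of 20 receptors and receptor regulators 2 were listed and passed as lower, Rnf43 and the co-receptor Lrp5 (-0.92 ± 0.22, SE). Of 23 genes of the destruction complex and its regulators 2 passed as lower, Axin2 and the casein kinase Csnk1g2 (-0.76 ± 0.22, SE). The secreted inhibitor Notum, a lipase that strips Wnt ligands of the lipid they need and a pericentral Wnt target itself, was 1 of 15 and at -1.01 ± 0.29 (SE). Of 21 nuclear genes 2 passed as lower, the transcription factor Tcf7l2 (-0.58 ± 0.20, SE) and the corepressor Tle2 (-0.56 ± 0.20, SE), both close to the median of all rows.

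Notum, the third Wnt feedback gene, had 79.3, 55.7, 43.7, 78.3 and 35.0 RPM in MO males 1 to 5. Its control values began at 54.1 RPM, in control male 2, and reached 201.0 RPM, in control male 6, the animal that was also highest for Axin2 and Rnf43. That library had the highest median of all listed rows as well (4.92), so the shared top animal is not particular to these genes. Among MO males Notum was highest in male 1, whereas Axin2 and Rnf43 were highest in male 3. The groups overlapped, since 2 of 5 MO males were below every control. Lrp5, the co-receptor, averaged 77.7 ± 26.2 RPM in MO males (SD, n = 5) and 146.4 ± 41.5 RPM in control males (SD, n = 6), with 4 of 5 MO males below every control.

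Of 18 Wnt target genes 4 were listed, and they did not all go one way. Axin2, Rnf43 and Notum passed as lower, and Myc, the growth-promoting transcription factor, passed as higher, as did 3.52% of the rows. Myc had 22.8, 14.2, 12.5, 24.2 and 23.6 RPM in MO males 1 to 5, against 4.12 RPM in the lowest and 16.4 RPM in the highest control. Means were 19.4 ± 5.62 RPM in MO males (SD, n = 5) and 8.16 ± 4.46 RPM in control males (SD, n = 6), a log2 difference of 1.23 ± 0.26 (SE), with 3 of 5 MO males above every control. Myc was the 1 gene of these lists that passed after centring (1.82 ± 0.24, SE). Centring moves the median of all rows from -0.58 to 0.01, which raises the higher rows further. Rows called higher numbered 48 before it and 48 after it, so this call adds nothing about Myc. Its highest control was male 6, as for Axin2, Rnf43 and Notum, and that library also had the highest median of all listed rows.

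Of 30 pericentral genes 6 were listed, and all 6 passed as lower, as did 96.5% of all rows. Their median was -1.03, beside -0.58 for all rows, but 4 of the 6 are the genes followed here, chosen by name. The others were the dioxin receptor Ahr (-1.19 ± 0.30, SE) and the uptake transporter Slco1b2 (-0.99 ± 0.24, SE). Ahr averaged 5.20 ± 3.62 RPM in MO males (SD, n = 5) and 11.8 ± 4.09 RPM in control males (SD, n = 6). Of 21 periportal genes 7 were listed, and all 7 passed as lower (96.5% of all rows did), with a median of -0.59. The cell adhesion protein Cdh1 (-1.09 ± 0.19, SE) and the histidine ammonia-lyase Hal (-1.08 ± 0.21, SE) had changes of the size seen in the pericentral genes, while Asl of the urea cycle (-0.69 ± 0.23, SE) and the cytochrome Cyp2f4 (-0.59 ± 0.18, SE) were nearer the table median. Every MO male was below every control in 3 of the 6 pericentral genes, which are Rnf43, Oat and Avpr1a themselves, and in 2 of the 7 periportal genes, where 29.9% of all rows showed this. After centring, 0 genes of either list passed. The difference between the lists was not tested, since only selected rows are at hand.

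**Figure D4:**
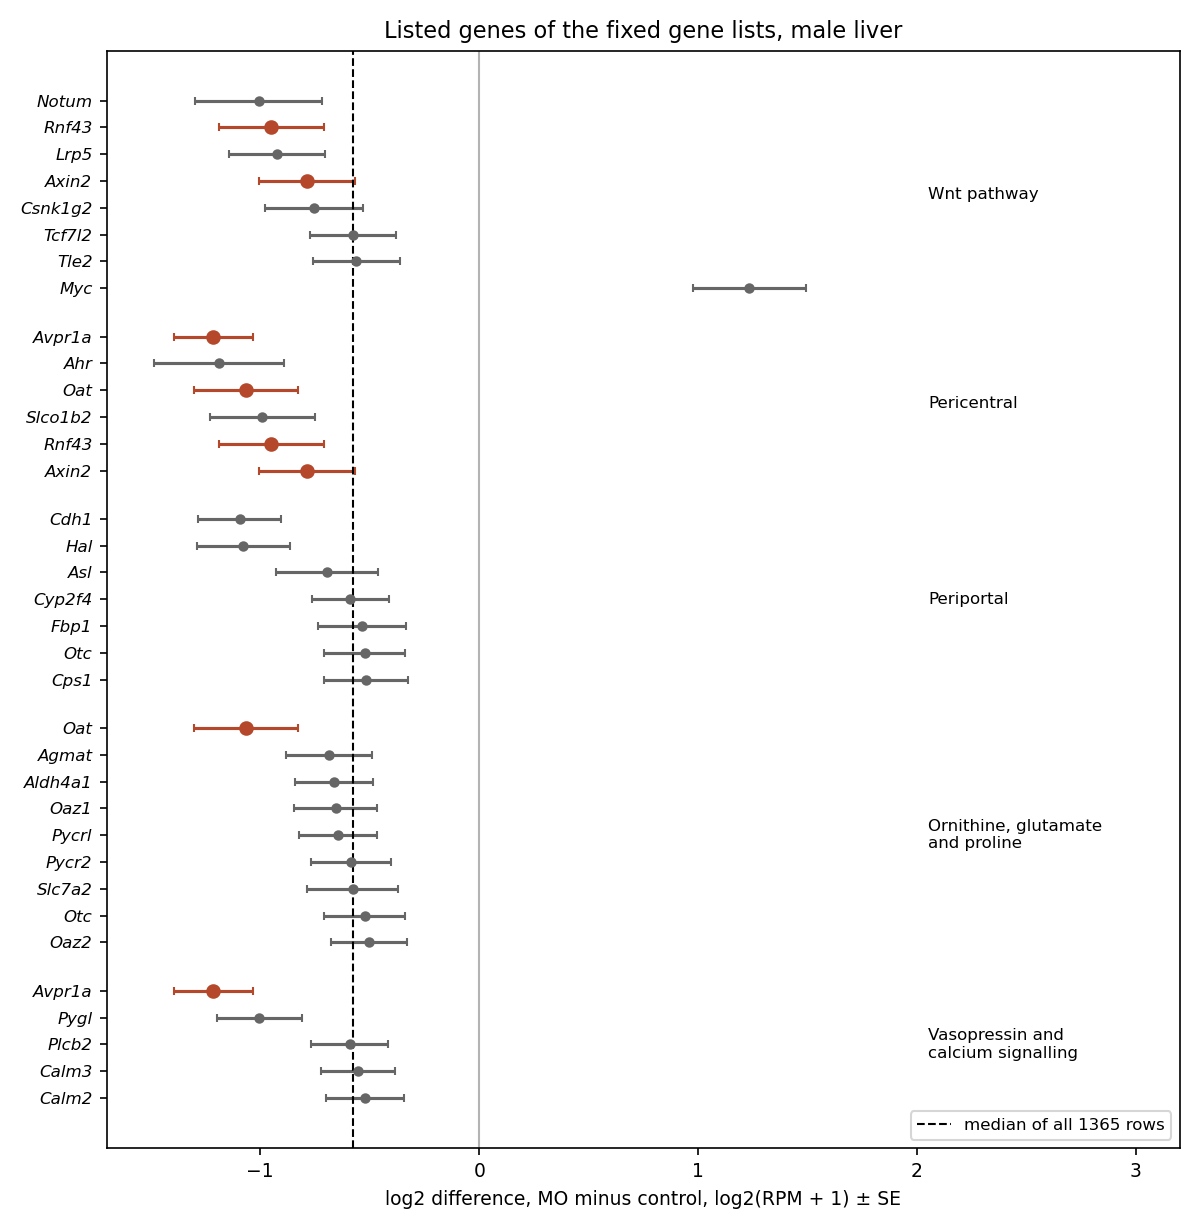
Log2 difference, MO minus control, with its SE (horizontal bars) for every gene of 5 gene groups that is in the male table, the 4 genes followed here in red and larger. All but Myc lie left of 0, the 4 genes left of the dashed line that marks the median of all rows (-0.58), and Cps1, Otc and Fbp1 of the periportal group just right of it.

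The other listed genes around Oat had smaller differences than Oat itself, which were not compared by a test. Of 25 genes of ornithine, glutamate and proline metabolism 9 were listed, and all 9 passed as lower, at the rate of the table (96.5% of all rows), with a median of -0.64. Besides Oat the largest differences were those of Agmat, the agmatinase (-0.69 ± 0.20, SE), Aldh4a1, which oxidises the product of Oat to glutamate (-0.66 ± 0.18, SE), and Oaz1, the antizyme that restrains ornithine decarboxylase (-0.66 ± 0.19, SE). Aldh4a1 averaged 292.9 ± 16.4 RPM in MO males (SD, n = 5) and 473.3 ± 107.1 RPM in control males (SD, n = 6), with every MO male below every control. This held for 3 of the 9 genes, Oat among them, and for 29.9% of all rows. Otc, which draws ornithine into the urea cycle, was at -0.52 ± 0.18 (SE).

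Of 32 genes of vasopressin and calcium signalling 5 were listed, and all 5 passed as lower, where 96.5% of all rows did, with a median of -0.59. Next to Avpr1a stood the liver glycogen phosphorylase Pygl, the enzyme at the end of this pathway (-1.0 ± 0.20, SE). Pygl averaged 111.4 ± 10.4 RPM in MO males (SD, n = 5) and 231.8 ± 66.7 RPM in control males (SD, n = 6), with every MO male below every control. Avpr1a and Calm3 showed this too, which makes 3 of the 5 genes, where 29.9% of all rows did. The phospholipase Plcb2 (-0.59 ± 0.18, SE) and the calmodulin genes Calm3 (-0.55 ± 0.17, SE) and Calm2 (-0.52 ± 0.18, SE) lay near the table median. The other vasopressin and oxytocin receptors and the Gq subunits were not among the rows.

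Markers of other cell types were looked up beside these results. Of 12 markers of liver endothelium, the source of the Wnt ligands, 0 were in the male table, and so were 0 of 7 Kupffer cell and 0 of 6 hepatocyte markers. Of 10 stellate cell markers 4 were listed and passed as lower, and they summed to 34.5 to 42.8 RPM in MO males and 48.8 to 67.2 RPM in control males. Of 6 bile duct markers 2 were listed and passed as lower, with sums of 6.17 to 13.4 RPM in MO males and 11.4 to 18.0 RPM in control males. These counts too stand against 96.5% of all rows. The part of these cell types in the lower levels of the 4 genes was not tested.

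In females, of all genes in these lists, the Wnt receptor Ror1 was the 1 listed. It averaged 1.05 ± 0.75 RPM in MO females (SD, n = 5) and 2.17 ± 0.81 RPM in control females (SD, n = 6), both low levels. The log2 difference was -0.66 ± 0.29 (SE). Ror1 passed the limma threshold, as did 81.2% of the rows of the female table. Those rows too had been selected, so this call is no test of Ror1.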

How the data were processed

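Liver RNA of 22 rats was sequenced, 1 library per animal, and the 11 male libraries carry the results. STAR 2.3.1j, Partek and the build rn5 are named, without a role, in the submitters' processing notes. For the annotation and the counting rule, nothing is stated in the labels. The authors deposited RPM with 1 added for each animal, a unit inferred from the values since the file headers name none. In male libraries 81.4% to 86.6% of values under 9 RPM were whole multiples of 1 read within 0.02 of a read, so whole reads were not recovered and no count test was run. The deposited fold column holds the size of a log2 difference, recovered for 1365 of 1365 male rows, and the deposited p-values are unadjusted.

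RPM was taken as the value minus 1. Log2(RPM + 1) was fitted with limma 3.58.1 (limma-trend, R 4.3.3) over all 1365 rows, MO against control males, with Benjamini-Hochberg adjustment over the table at 0.05 and no filter on low values. The fold change on this scale understates that of low genes. Lists kept 1 row per gene, that with the smallest p. The fit was tested on simulated data. Because rows were selected, its p-values are too small, and the adjusted ones give no error rate over all transcripts. Litters are not given, so p-values rest on the spread between animals.

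The 4 genes and all gene lists were chosen with earlier results of these data known. Genes named beside them were the 3 with the highest r to each, and from each list all listed genes or, beyond 5, the 4 with the largest difference; Otc, Cps1 and Fbp1 were named after their values were seen. Alternatives were another pseudocount (0.1 or 5), a filter at a mean of 1 RPM, libraries centred on their median, the replicate number as a block, subsets of the controls and leaving out each animal. A list of lymphocyte markers is not reported here. Promoter windows are from RefSeq, and chromosomes elsewhere are those of the deposited table.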

Additional observations from a re-analysis of the deposited data

Results flagged for a closer look

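Of the 8 sets of values, 4 genes in MO and in control males, 2 held an animal far from the rest of its group by its gap to the nearest value, where chance would mark about 1 set in 20. Control male 5 had 510.9 RPM of Oat, and the next control had 268.2 RPM, a gap of 0.78 of the range of the controls. Control male 6 had 13.5 RPM of Rnf43, and the next control had 7.93 RPM, a gap of 0.74 of the range. Without control male 5 the log2 difference of Oat was -0.88, against -1.06 with all animals. Without control male 6 that of Rnf43 was -0.79, against -0.95 with all animals.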

How the results depend on the processing

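The log2 differences of the 4 genes stayed negative under every alternative run. Centring the libraries gave -0.20 for Axin2, -0.36 for Rnf43, -0.48 for Oat and -0.63 for Avpr1a, and left 24 rows called lower, with 0 lower calls among the Wnt pathway, Wnt target, pericentral, periportal, ornithine, vasopressin and other cell type lists, since it subtracts the shift that the selected rows share. Against control males 1 and 5 alone, with fewer samples in the fit, 493 rows were called lower. Among them were 3 Wnt pathway, 1 Wnt target, 4 ornithine, 2 vasopressin and 3 other cell type genes, in place of 7, 3, 9, 5 and 6. Pericentral genes fell from 6 to 4 and periportal genes from 7 to 5. Some genes, such as Axin2 and Rnf43, are in several of these lists. Leaving out single animals gave -0.94 to -0.67 for Axin2, -1.11 to -0.74 for Rnf43, -1.17 to -0.87 for Oat and -1.31 to -1.11 for Avpr1a. The calls then ranged from 1235 to 1316 lower and 47 to 48 higher rows and from 5 to 6 other cell type markers, with 7 to 7 Wnt pathway, 3 to 3 Wnt target, 6 to 6 pericentral, 7 to 7 periportal, 9 to 9 ornithine and 5 to 5 vasopressin genes.

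Leaving out single controls, r ranged from 0.09 to 0.83 for Axin2 and Rnf43, 0.25 to 0.84 for Axin2 and Oat, -0.17 to 0.085 for Axin2 and Avpr1a, -0.37 to 0.40 for Rnf43 and Oat, -0.36 to 0.38 for Rnf43 and Avpr1a and -0.34 to 0.14 for Oat and Avpr1a. After centring, r turned positive for Axin2 and Avpr1a (0.073) and Oat and Avpr1a (0.38), and it was -0.69 in place of -0.11 for Rnf43 and Avpr1a, -0.40 in place of -0.14 for Rnf43 and Oat and 0.33 in place of 0.61 for Axin2 and Rnf43. Over the 11 males it did so for Axin2 and Avpr1a (0.38) and Rnf43 and Avpr1a (0.49). The cause was not tested. With the library median, r ranged from -0.21 to 0.84 for Axin2, 0.93 to 0.99 for Rnf43, -0.41 to 0.19 for Oat and -0.46 to 0.56 for Avpr1a.

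The replicate numbers shared by the groups did not pair the animals: same-numbered males had correlations of deviations of -0.10 to 0.15, and 0 of 5 MO males matched their own number best. With the replicate number as a block the differences were -0.67 for Axin2, -0.79 for Rnf43, -1.07 for Oat and -1.22 for Avpr1a, and 1296 lower and 48 higher rows were called. Control male 6 has no MO male of its number, so the block takes it out of the comparison. These differences are the same as those found by leaving out control male 6. Axin2 and Rnf43 had the fewest reads of the 4, and counting alone would give 11.8% to 15.9% of variation in their levels, less than the spread between animals.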
